A study of Arabidopsis thaliana with 16 samples.

Results

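The cortex and the endodermis are the outer and the inner layer of the ground tissue of the Arabidopsis thaliana root, and their transcript levels were compared here on 6 of the 16 arrays of a series on iron-starved roots. The 3 cortex arrays came from cells sorted by the fluorescence of a reporter that the labels call CORTEX, and the 3 endodermis arrays from cells sorted by SCR::GFP. The groups were taken from the sample titles and not from any measured value. All 6 samples came from Columbia seedlings collected 6 days after germination, after 24 h on medium without added iron that held 0.3 mM of the iron chelator ferrozine. Both groups were therefore iron-deficient. No array of roots grown with iron entered the comparison, so the values below are levels or differences between layers and never a response to iron. Roots were digested to protoplasts before sorting, and the RNA was amplified in 2 cycles before it was hybridised to the Affymetrix ATH1 array.

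SCR::GFP marks the quiescent center together with the endodermis, so the endodermis arrays hold both. Each population was isolated with 1 reporter line. The labels do not say whether replicates were separate cultures, so the spread that the p-values rest on may be technical. The other 10 arrays of the series hold epidermis with lateral root cap (4 arrays), columella (3 arrays) and stele (3 arrays). They entered the shared estimate of the spread and are named below only to place a level. In sorted bulk samples, fewer cells of a type and less RNA per cell cannot be told apart.

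The endodermis is the innermost layer of the ground tissue and surrounds the stele. It builds the Casparian strip, a ring of lignin in the cell wall that seals the space between cells, so that solutes must cross a membrane to reach the vascular tissue. Receptor kinases, peroxidases and dirigent proteins place and polymerise that lignin. The cortex lies between endodermis and epidermis, arises with the endodermis from shared initial cells by a division that needs the transcription factors SHORT-ROOT and SCARECROW, and has no such seal in this root. Under iron deficiency, Arabidopsis roots make and secrete coumarins, phenolic compounds that mobilise iron, and a cascade of basic helix-loop-helix (bHLH) factors controls the response.

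Values are MAS5 signals in arbitrary units, given in the order of replicates 1, 2 and 3. Differences are cortex minus endodermis on the scale log2(signal + 10.21), where 10.21 is the 20th percentile of all signals, so a positive value means a higher level in the cortex and the size of low-signal differences is understated. A probe set was called when its adjusted p in the limma fit was under 0.05, and the difference is followed by its standard error. The median signal of the arrays was 70.3, 58.4 and 50.0 in the cortex and 76.2, 81.1 and 78.2 in the endodermis. Array pairs correlated at 0.94 to 0.97 within the cortex, at 0.94 to 0.95 within the endodermis and at 0.78 to 0.84 between the layers. The mean log2 ratio of 3′ to 5′ signal over 3 control transcripts, a sign of RNA length, was 2.98, 2.85 and 2.94 in the cortex and 3.28, 3.69 and 4.18 in the endodermis. It moved with the groups, and its part in the differences below was not tested.

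The 2 cortex markers tested were higher in the cortex arrays, and 1 of them shares the name of the sorting reporter. Of the 4 listed, 3 were named by the annotation, and 1 of these was too dim to pass the signal filter. AT1G09750, whose promoter is used as a cortex marker, is listed under the name CORTEX, which the labels give to the reporter. Its level may therefore follow from the sort itself, so it is no independent check of the cells. Its signals were 1409, 533 and 565 in the cortex and 69.4, 55.6 and 45.8 in the endodermis. The difference was 3.52 ± 0.42 (SE), adjusted p = 7e-06. AT1G62510, another cortex marker, had 2318, 1808 and 2953 against 427, 249 and 192 (3.03 ± 0.51 (SE), adjusted p = 0.00017). For both markers every cortex array lay far above every endodermis array. The gene of the SCR reporter was not named by the annotation used and could not be checked. The annotation named 3 of 15 listed Casparian strip genes and 2 of 9 listed genes of the quiescent center and stem cell niche. The summed signal of the 3 Casparian strip genes was 1343, 1853 and 1289 in the cortex and 9361, 12902 and 13413 in the endodermis. The sum over the 2 quiescent center genes was 171, 109 and 159 against 306, 449 and 294.

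Markers of other cell types also differed between the layers. The annotation named 5 of 20 listed epidermis and root hair markers, 2 of 7 root cap markers and 1 of 18 vascular markers. The summed signal of the 5 epidermis and root hair markers was 377, 1860.1 and 822 in the cortex and 432, 173 and 193 in the endodermis, against a range of 1023 to 1967 in the epidermis arrays and 469 to 1061 in the stele arrays. It was higher in cortex replicates 2 and 3 than in replicate 1. The stele and epidermis ranges overlapped through epidermis replicate 4 alone, at 1023. Epidermis replicates 1, 2 and 3 gave 1967, 1777 and 1349, all above the stele arrays. Within the list, PRX35 averaged 171 ± 160.5 (SD, n = 3) in the stele and 75.5 ± 32.7 (SD, n = 4) in the epidermis. No marker on that list was at 0. Of these 5, EXPA7, EXPA18, ATMYC1 and PRX35 were called higher in the cortex, but 1 of the 4 stayed called without cortex replicate 2, and 2 without endodermis replicate 2 or 3. The single vascular marker named, LHW, read 305, 119 and 131 in the cortex and 564, 393 and 429.6 in the endodermis. Its mean was 519 in the stele, 272 in the columella and 205 in the epidermis, so it was not confined to vascular cells. The 2 root cap markers summed to 205 to 398 in the cortex against 449 to 1049 in the endodermis. Of these 2, AT4G04460 (PASPA3) had its highest mean in the stele, 1793, with 1593.5 in the epidermis and 705 in the columella. The part of epidermal RNA in the cortex results and of vascular RNA in the endodermis results was not tested.

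The layers differed at 44.3% of the 16221 probe sets tested, 7194 in all. Of these, 2965 (18.3%) were higher in the cortex and 4229 (26.1%) were higher in the endodermis. All 3 cortex arrays lay above all 3 endodermis arrays at 22.1% of the probe sets, and below them at 30.8%. The median difference over all tested probe sets was -0.21, so the endodermis arrays ran slightly brighter as deposited. Quantile normalization moved that median to -0.03 and made the split nearly even, with 3449 higher in the cortex and 3359 higher in the endodermis, and median centring moved it to -0.05 with 3537 and 3399. A pseudocount of 38.05, the 40th percentile, shrank low-signal differences most, by over 1.5 times for BBM, PHV, PRX25, PRX35, PRX38, DIR19, HSP22.0, NPF5.9, scpl46, SBT1.3, IAA30, HEMA3, CYP78A9, GSTU23 and the dimmer probe set of BTSL1. For each list below, the shares of 18.3% and 26.1% and the median of -0.21 are the background. No named gene that was called changed direction under any of the alternatives run.

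Large differences were about as frequent on either side. Differences of over 4-fold numbered 611 toward the cortex and 645 toward the endodermis, those of over 8-fold 155 and 151, and those of over 16-fold 15 and 11. The same fit called 47.8% of probe sets between epidermis and cortex, 33.8% between cortex and stele and 30.0% between endodermis and stele; these comparisons share arrays with the present one. Among the 2965 probe sets higher in the cortex, the cortex had the highest mean of the 5 populations in 1599 and the endodermis the lowest in 1490, with both in 454. Among the 4229 higher in the endodermis, the endodermis was the highest in 2007 and the cortex the lowest in 2272, with both in 716.

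**Figure D1:**
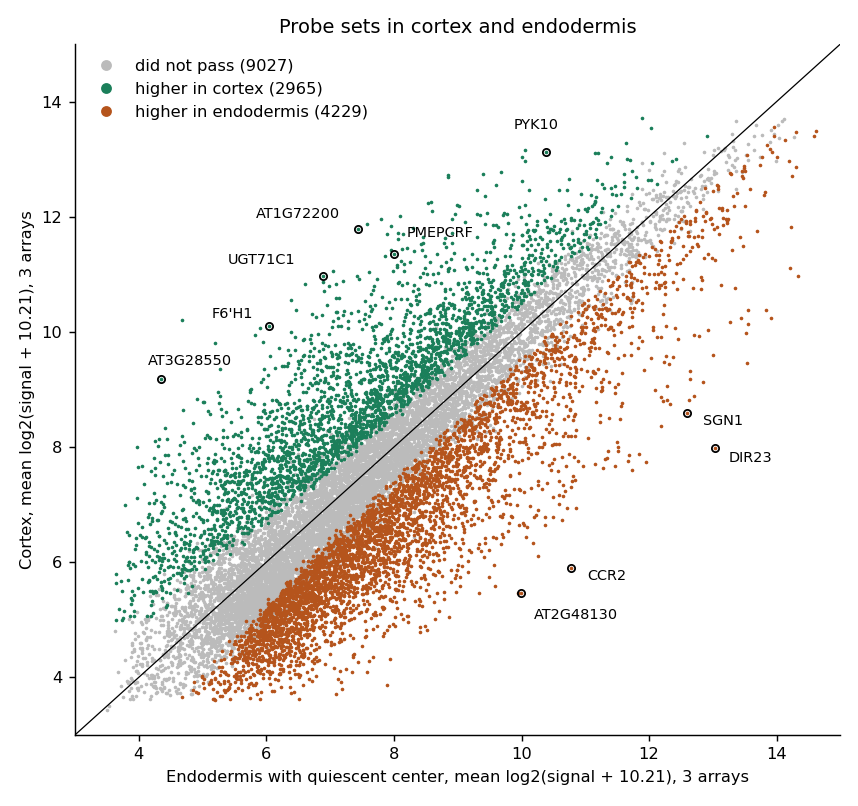
Each point is 1 of the 16221 probe sets, with its mean log2(signal + 10.21) over the 3 endodermis arrays on the x axis and over the 3 cortex arrays on the y axis, coloured by the call. The 2965 probe sets called higher in the cortex lie above the line of equal levels and the 4229 called higher in the endodermis below it, with a few of the genes named in the text circled.

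Of 15 listed Casparian strip genes the annotation named 3, and all 3 were higher in the endodermis. Of 20 listed suberin genes it named 0, so these could not be checked. SGN1 (AT1G61590), a kinase that acts below the receptor GSO1 in sealing the Casparian strip, had signals of 315, 521 and 317 in the cortex and 4706, 6767 and 7320.1 in the endodermis, a 16.1-fold difference (-4.01 ± 0.40 (SE), adjusted p = 1.3e-06). GSO1, also named SGN3, the receptor kinase that surveys the integrity of the strip, read 998, 1285 and 947 against 4447, 5956 and 5932 (-2.33 ± 0.32 (SE), adjusted p = 2.6e-05). For both, every endodermis array was above every cortex array and the endodermis had the highest mean of the 5 populations. CIF2 (AT4G34600), a peptide ligand of that receptor, was also higher in the endodermis than in the cortex, at 207, 179 and 161 against 30.6, 47.4 and 25.7 (-2.13 ± 0.34 (SE), adjusted p = 0.00012). Its highest mean was in the stele, 435 ± 92.3 (SD, n = 3). So all 3 of the listed genes of this pathway that the annotation named were called, and all 3 calls were made whichever of the 6 arrays was left out.

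Both listed genes of monolignol synthesis that the annotation named were also higher in the endodermis. CCR2, a cinnamoyl-CoA reductase of the monolignol pathway, had the largest difference of any symbol-bearing gene toward the endodermis: 22.9, 73.7 and 64.9 in the cortex and 1491, 1795 and 2004 in the endodermis, 29.7-fold (-4.89 ± 0.35 (SE), adjusted p = 1.1e-07). HCT, the hydroxycinnamoyl transferase that channels intermediates toward monolignols, read 2400.1, 1512 and 1769 against 5312, 5326 and 5307 (-1.51 ± 0.28 (SE), adjusted p = 0.00038). These were the only 2 of the 19 listed phenylpropanoid genes that the annotation named. UGT72E3, a glucosyltransferase of monolignols, was higher in the endodermis (1571, 1625 and 1782 against 406, 351 and 475, adjusted p = 0.00097). UGT72E2, its relative with the same kind of activity, was higher in the cortex (3599, 2836 and 3544 against 1303, 721 and 839, adjusted p = 0.00039). The groups did not overlap for any of these 4 genes.

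Dirigent proteins, which guide the coupling of phenolic radicals and include proteins that the Casparian strip needs, lay almost wholly on the endodermal side. Of the 9 tested, 7 were higher in the endodermis and 0 in the cortex, with a median difference of -2.79, and 5 of the 7 had their highest mean in the endodermis. DIR23 (AT2G21100) read 189, 274 and 277 in the cortex and 6416, 10069 and 9229 in the endodermis, 33.2-fold (-5.05 ± 0.38 (SE), adjusted p = 1.4e-07), the largest difference toward the endodermis of any probe set that names a gene by its locus tag alone. DIR9 (AT2G39430) read 341, 739 and 338 against 4449, 8324 and 6818 (-3.81 ± 0.36 (SE), adjusted p = 8.6e-07). DIR18 (AT4G13580) read 824, 2030.3 and 1386 against 10342, 18068 and 16427 (-3.45 ± 0.37 (SE), adjusted p = 2.7e-06). In each of the 3, the highest cortex array was several-fold below the lowest endodermis array.

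DIR13 (AT4G11190), with 134, 238 and 209 against 3106, 2508 and 1949, and DIR20 (AT1G55210), with 332, 393 and 290.4 against 2648, 1966 and 2587, followed the same order without overlap. DIR14 (AT4G11210) was also called (-2.54 ± 0.57 (SE), adjusted p = 0.0018), but its highest mean was in the stele. DIR19 (AT1G58170) had overlapping groups, 36.4, 21.7 and 13.9 against 70.6, 35.3 and 78.5, and its adjusted p of 0.031 was lost under several settings, at 0.075, 0.14, 0.088 and 0.12 without cortex replicates 2 and 3 and endodermis replicates 1 and 3 in that order, 0.12 under quantile normalization, 0.07 after median centring, 0.094 with a pseudocount of 1 and 0.054 in a fit of only the 6 arrays. The others, DIR7 (AT3G13650) and DIR17 (AT3G58090), did not pass, with 1517, 1584 and 2134 against 1900.4, 1224 and 1457 and 47.7, 19.9 and 26.3 against 36.1, 1.83 and 5.92. DIR17 was called higher in the cortex under quantile normalization, median centring, a pseudocount of 1 and array weights, and without endodermis replicate 1. In all, 6 of the 7 calls were made whichever of the 6 arrays was left out.

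**Figure D2:**
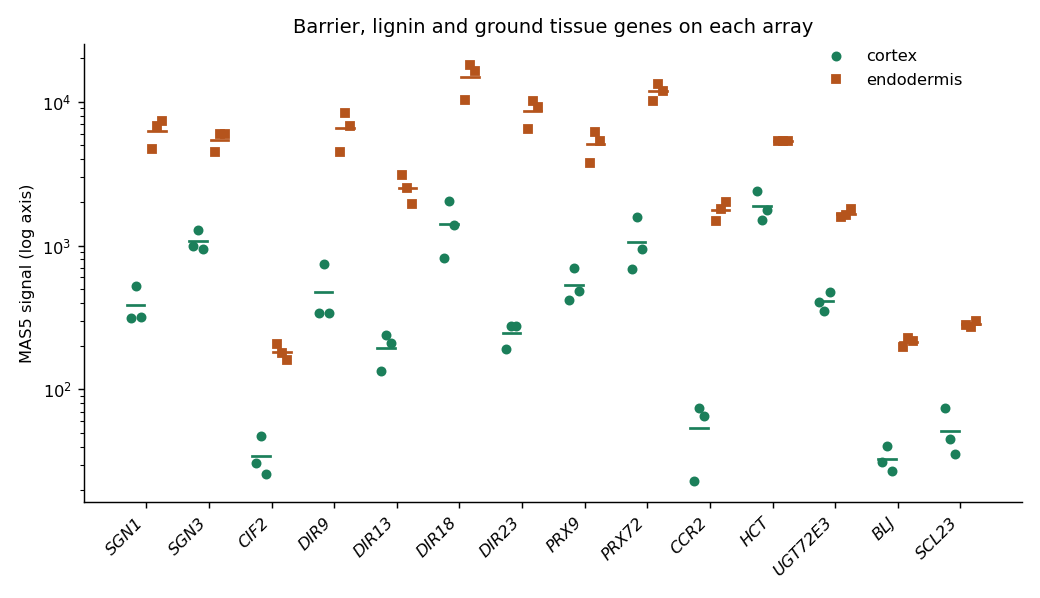
Signals of 14 genes of the Casparian strip, of lignin formation and of ground tissue patterning on the 3 cortex and 3 endodermis arrays, on a log axis in arbitrary units, with 1 point per array and a line at each group's mean. For every gene shown the 3 endodermis points lie above the 3 cortex points. The figure leaves out genes of these groups without that order, such as UGT72E2, JKD, DIR7, DIR17 and DIR19. SGN3 is GSO1.

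Class III peroxidases, the secreted haem enzymes that oxidise monolignols and other wall substrates, split between the layers. Of 37 tested, 16 were higher in the endodermis and 11 in the cortex, with a median of -0.63, and the endodermis was the highest of the 5 populations for 11 of the 16. PRX72 (AT5G66390), which takes part in lignification of the strip, read 681, 1569.6 and 944 in the cortex and 10175, 13373 and 11944 in the endodermis (-3.54 ± 0.34 (SE), adjusted p = 1.1e-06). PRX9 (AT1G44970), another peroxidase of the strip, read 419.5, 703 and 481 against 3748, 6187 and 5321 (-3.23 ± 0.42 (SE), adjusted p = 1.5e-05). PRX39 (AT4G11290), the third such enzyme tested, read 581, 1791 and 1433 against 10845, 9244 and 9514 (-3.09 ± 0.84 (SE), adjusted p = 0.0069). Every endodermis array was above every cortex array for each of the 3 enzymes.

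PRX40 (AT4G16270) and PRX54 (AT5G06730) showed the largest peroxidase differences toward the endodermis. PRX40 read 43.7, 194 and 98.4 in the cortex and 1711, 1796 and 1261 in the endodermis (-3.90 ± 0.53 (SE), adjusted p = 2.3e-05). PRX54 read 7.52, 26.4 and 22.4 against 571, 199.6 and 311 (-3.62 ± 0.44 (SE), adjusted p = 9.1e-06). PRX47 (AT4G33420), associated with lignifying vessels, was 11.1-fold higher in the endodermis than in the cortex (adjusted p = 5.7e-05) and highest in the stele. PRX37 and its neighbour PRX38 (AT4G08780), adjacent in the RefSeq TAIR10.1 gene order, were both higher in the endodermis, at -2.87 ± 0.44 (SE), adjusted p = 7.2e-05 and -1.90 ± 0.31 (SE), adjusted p = 0.00013. PRX49 (AT4G36430) and PRX25 (AT2G41480) were called in the same direction, at -2.84 and -2.20. All 16 calls toward the endodermis were made whichever of the 6 arrays was left out.

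On the cortex side, PRX57 (AT5G17820) had the largest difference, with 1594, 6121 and 3884 in the cortex and 476, 140.2 and 252 in the endodermis (3.65 ± 0.48 (SE), adjusted p = 1.9e-05). PRX56 (AT5G15180) read 2862, 2580.4 and 3483 against 467, 327 and 237 (3.12 ± 0.38 (SE), adjusted p = 8e-06). PRX69 (AT5G64100) read 7508, 7237 and 6441 against 1104, 1126 and 425 (3.11 ± 0.48 (SE), adjusted p = 7.8e-05). PRX21 (AT2G37130) read 2247, 4215 and 3328 against 675, 423 and 290.4, and these 4 enzymes had their highest mean in the cortex and no overlap between groups. PRX27 (AT3G01190), with 5416, 12199 and 9044 against 1594, 582 and 1137, and PRX35 (AT3G49960), with 14.9, 288 and 82.4 against 6.51, 3.40 and 2.67, were called too. PRX35 is itself 1 of the 5 epidermis and root hair markers summed above. Of the 10 other peroxidases called toward the cortex, 6 (PRX7, PRX16, PRX21, PRX24, PRX27 and PRX57) were highest in cortex replicate 2 and lowest in replicate 1, the order of that sum. The other 4 had another order. The share of all probe sets called toward the cortex that has this order was not counted, so the 6 may be no more than that share. The part of epidermal RNA in these calls was not tested. Of the 11 calls toward the cortex, 8 were made whichever of the 6 arrays was left out; the exceptions were PRX16 (AT2G18980), PRX7 (AT1G30870) and PRX31 (AT3G28200). For PRX16 the adjusted p became 0.096, 0.083 and 0.071 without cortex replicates 2 and 3 and endodermis replicate 2 in that order. That of PRX7 was 0.066 without cortex replicate 2, and that of PRX31 was 0.054 and 0.051 without cortex replicate 3 and endodermis replicate 3 in that order.

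**Figure D3:**
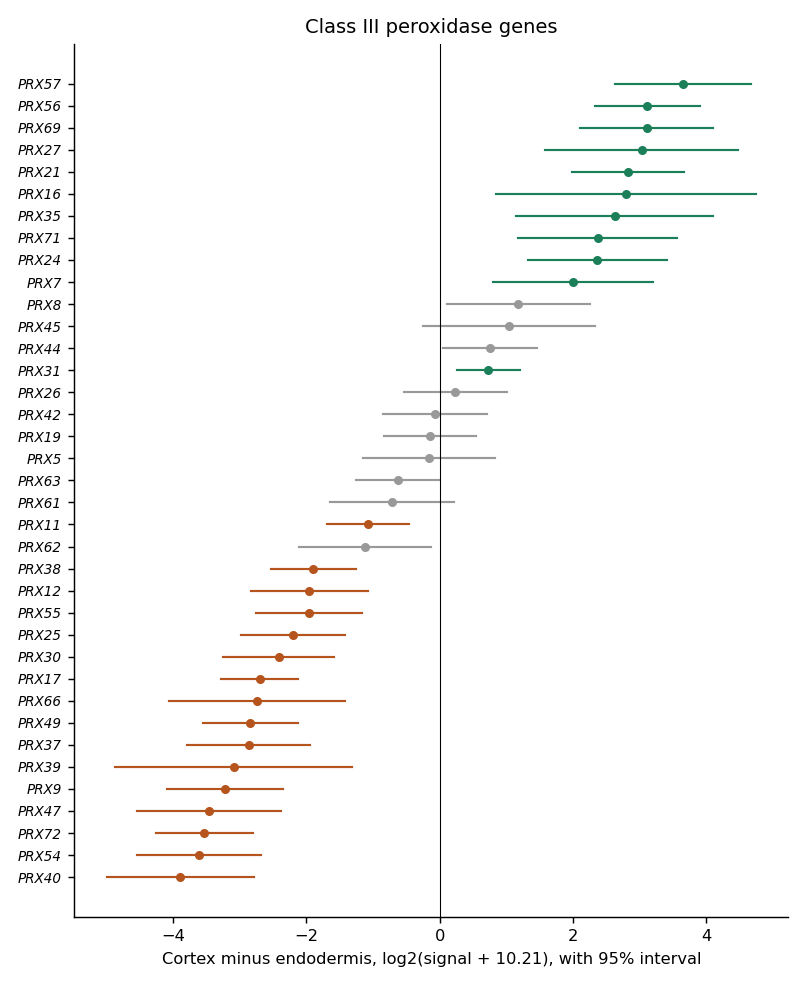
Cortex minus endodermis difference (log2) of the 37 tested class III peroxidases, with the 95% interval of the fit as a bar, ordered by the difference and coloured by the call. The 16 enzymes called higher in the endodermis run down to -3.90 for PRX40, and the 11 called higher in the cortex run up to 3.65 for PRX57.

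Other genes with large differences toward the endodermis encode a receptor-like kinase and small secreted proteins. B120, a receptor-like kinase of the S-locus type, read 106, 231 and 164 in the cortex and 1339, 1839 and 2226 in the endodermis (-3.38 ± 0.37 (SE), adjusted p = 3.3e-06). PDF2.5, a small cysteine-rich defensin, read 474, 311 and 119.6 against 2607, 3371 and 2736 (-3.41 ± 0.41 (SE), adjusted p = 8.3e-06). RALFL32, a secreted peptide of the RALF family, read 181, 251 and 159 against 1641, 1982 and 2420.4 (-3.30 ± 0.35 (SE), adjusted p = 2.5e-06). All 3 had their highest mean in the endodermis. ATLP-1, a thaumatin-like protein, was highest in the endodermis and lowest in the cortex of the 5 populations, at 96.4, 74.9 and 69.9 in the cortex against 401, 1448 and 936 in the endodermis (-3.20 ± 0.35 (SE), adjusted p = 2.9e-06). ATC, a relative of the flowering regulator TFL1, was 9.23-fold higher in the endodermis than in the cortex (adjusted p = 1.7e-06) but highest in the columella.

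The 6 largest differences toward the endodermis among genes named by locus tag alone included DIR23 and SGN1. The others were AT2G48130 (-4.53 ± 0.49 (SE), adjusted p = 3e-06), AT1G03920 (-4.21 ± 0.38 (SE), adjusted p = 5.9e-07), AT2G37950 (-4.14 ± 0.38 (SE), adjusted p = 6.5e-07) and AT4G30450 (-3.95 ± 0.56 (SE), adjusted p = 3.5e-05). AT2G48130 read 6.42, 75.02 and 49.9 in the cortex and 839, 959 and 1267 in the endodermis, and AT1G03920 read 163, 250.1 and 207 against 2157, 6865 and 4191. Each of the 4 was highest in the endodermis and without overlap between the groups.

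Regulators of ground tissue identity were higher in the inner layer. BLJ (AT1G14580), a zinc-finger factor of the BIRD family that acts with SCARECROW to maintain the layers, read 31.2, 40.3 and 27.03 in the cortex and 196, 227 and 217 in the endodermis (-2.39 ± 0.33 (SE), adjusted p = 2.6e-05). SCL23 (AT5G41920), the closest GRAS relative of SCARECROW, read 74.4, 45.1 and 35.6 against 282, 273 and 298 (-2.30 ± 0.34 (SE), adjusted p = 5.4e-05). PHV, an HD-ZIP III factor that patterns the root radially, read 14.5, 10.4 and 18.3 against 68.5, 74.2 and 86.7 (-1.82 ± 0.27 (SE), adjusted p = 5.7e-05), with its highest mean in the stele. JKD, another BIRD factor, did not pass: 302, 101 and 159 against 264, 170.4 and 154 (adjusted p = 0.81), with overlapping groups. Hence 3 of the 4 listed regulators named by the annotation were higher in the endodermis and 0 in the cortex, with every call made whichever of the 6 arrays was left out.

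The SCR::GFP arrays include the quiescent center, and 1 of 2 tested genes of the stem cell niche list, 1 of 2 of the cell cycle and DNA replication list and 1 of 2 histone genes were called, each higher in the endodermis. BBM, an AP2 factor of the root stem cell niche, read 12.9, 2.13 and 9.04 in the cortex and 42.2, 194 and 98.1 in the endodermis (-2.58 ± 0.44 (SE), adjusted p = 0.00019). AGL42, a marker of the quiescent center, did not pass at 158, 107 and 149.8 against 264, 254 and 195 (adjusted p = 0.065). In both genes every endodermis array was above every cortex array. AUR2, an Aurora kinase of mitosis named for the size of its difference and on none of these lists, read 58.8, 42.9 and 36.5 against 284, 521 and 378 (-2.82 ± 0.31 (SE), adjusted p = 3.2e-06). PRL, which encodes the replicative helicase subunit MCM7, read 204, 103 and 79.9 against 348, 587 and 522 (-1.90 ± 0.40 (SE), adjusted p = 0.0011). HTB2, a histone H2B, read 107, 65.3 and 71.2 against 348, 479.7 and 314 (-2.10 ± 0.33 (SE), adjusted p = 0.0001). SIM, an inhibitor of the cell cycle, had every cortex array above every endodermis array at 2114, 2623 and 2307 against 937, 1574 and 1234 but did not pass (0.93 ± 0.50 (SE), adjusted p = 0.14); its adjusted p was 0.005 in a fit of only the 6 arrays. The linker histone HON4 did not pass at 255, 251 and 283 against 213, 429 and 363 (adjusted p = 0.46). AUR2, PRL, HTB2 and BBM all had the highest mean of the 5 populations in the endodermis and the lowest in the cortex, and the share of quiescent center cells in the arrays was not measured. TRM21, a protein of the TRM family linked to microtubule arrays, was 7.15-fold higher in the endodermis (adjusted p = 2.4e-06).

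The cortex carried a strong set of small-molecule glycosyltransferases. Of the 35 UGT genes tested, which attach sugars to phenolics, hormones and other small molecules, 15 were higher in the cortex and 3 in the endodermis, with a median of 0.55, and the cortex was the highest of the 5 populations for 10 of the 15. UGT71C1, active on flavonoids and other phenolics, read 1686, 2193 and 2187 in the cortex and 169, 59.98 and 121 in the endodermis, 17.1-fold (4.09 ± 0.54 (SE), adjusted p = 1.9e-05). Its adjacent relative UGT71C2 read 163, 324 and 373 against 10.6, 8.95 and 9.49 (3.82 ± 0.29 (SE), adjusted p = 1.4e-07). UGT84A1, which makes glucose esters of hydroxycinnamic acids, read 268, 193 and 149.9 against 10.8, 3.05 and 27.1 (3.25 ± 0.45 (SE), adjusted p = 2.8e-05). The 3 genes showed no overlap and were the largest of the UGT differences toward the cortex.

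UGT76B1, which glucosylates isoleucic and salicylic acid, read 3636, 4287 and 5022 in the cortex and 983, 779 and 439 in the endodermis (2.60 ± 0.44 (SE), adjusted p = 0.0002). UGT71B1 (2.09 ± 0.28 (SE), adjusted p = 1.9e-05), UGT73B1 (2.21 ± 0.42 (SE), adjusted p = 0.00048) and UGT84A4 (1.88 ± 0.33 (SE), adjusted p = 0.00025) were likewise highest in the cortex. UGT78D2, a flavonoid 3-O-glucosyltransferase, was 2.66-fold higher in the cortex (adjusted p = 0.00059). In contrast, UGT71C3, from the same subfamily as UGT71C1 and UGT71C2, read 52.3, 65.03 and 73.3 in the cortex and 677, 560.0 and 714 in the endodermis (-3.17 ± 0.34 (SE), adjusted p = 2.7e-06). UGT74F1, which glucosylates salicylic acid, read 11.3, 16.4 and 11.9 against 118, 201 and 210.4 (-2.96 ± 0.37 (SE), adjusted p = 1e-05). Both were highest in the endodermis. Of the 15 calls toward the cortex, 13 were made whichever of the 6 arrays was left out. Array weights raised the 3 calls toward the endodermis to 5.

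**Figure D4:**
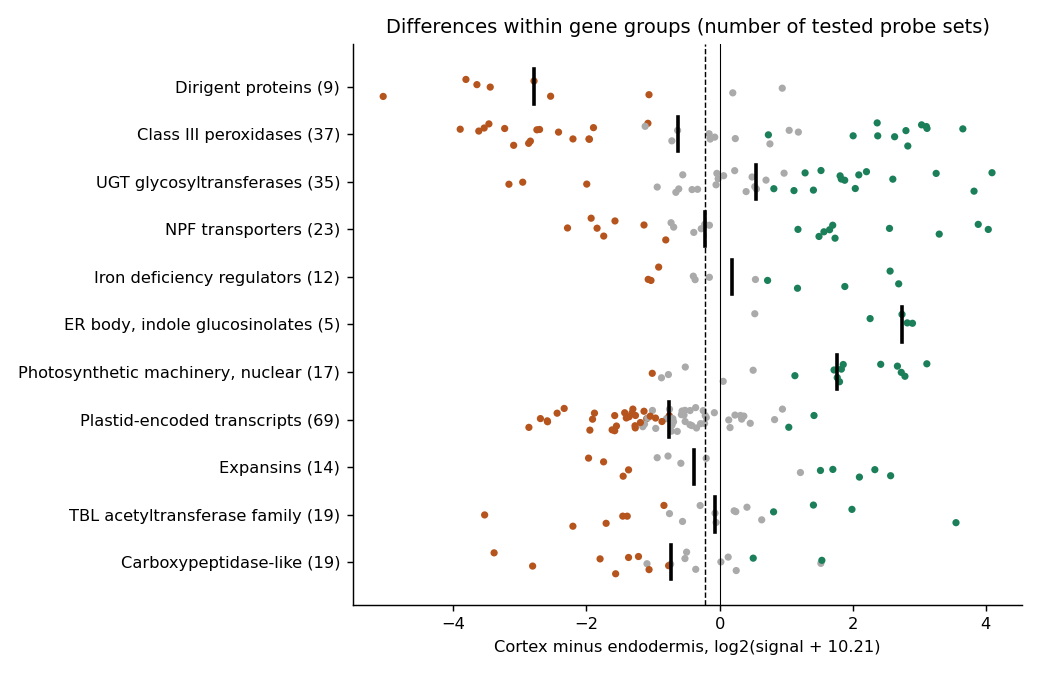
Cortex minus endodermis differences (log2) of the tested members of 11 gene groups on the x axis, with 1 row per group and 1 dot per probe set, coloured by the call, with a thick bar at each family's median and a dashed line at the median of all tested probe sets. The UGT genes and the nuclear genes of the photosynthetic machinery lie mostly to the right of 0, and the dirigent proteins and the plastid-encoded transcripts mostly to the left.

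The gene for the first dedicated step of coumarin synthesis was higher in the cortex, while 2 of the other 3 described here did not pass and the call of F6'H2 was lost without either of 2 arrays. F6'H1 (AT3G13610), the feruloyl-CoA 6'-hydroxylase that commits phenolics to coumarins, read 1172, 1016 and 1062 in the cortex and 35.2, 35.2 and 126 in the endodermis, a 16.7-fold difference (4.06 ± 0.52 (SE), adjusted p = 1.3e-05), without overlap and with the highest mean of the 5 populations in the cortex. Its relative F6'H2 (AT1G55290) read 66.9, 143 and 81.7 against 70.6, 30.2 and 12.02, with overlapping groups; its adjusted p of 0.017 rose to 0.088 and 0.11 without cortex replicate 2 and endodermis replicate 3 in that order, and its difference of 1.30 fell to 0.85 without endodermis replicate 3. COSY (AT1G28680), which closes the coumarin ring, did not pass at 1214, 1009.6 and 1016 against 1171, 1335 and 1484 (adjusted p = 0.29). BGLU42, a beta-glucosidase that releases coumarins from their glucosides, did not pass either at 314, 200.4 and 218 against 239, 252 and 304 (adjusted p = 0.7). For COSY and BGLU42 the 95% intervals of the difference were -0.76 to 0.17 and -0.68 to 0.41.

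Regulators of the iron deficiency response gave calls in both directions. BTSL1 (AT1G74770), a ubiquitin ligase that limits the response, read 727, 639 and 575 in the cortex and 103, 133 and 73.2 in the endodermis on its brighter probe set (2.56 ± 0.28 (SE), adjusted p = 2.8e-06), and its other probe set gave 2.69 ± 0.51 (SE), adjusted p = 0.00052. BHLH101, a bHLH factor of subgroup Ib that acts near the end of the cascade, read 302, 229.9 and 215 against 94.8, 130.2 and 90.2 (1.17 ± 0.25 (SE), adjusted p = 0.0014). AT3G07720, a kelch-repeat gene that is part of the iron deficiency signature, read 3759, 2649 and 1913 against 939, 720.0 and 546 (1.88 ± 0.28 (SE), adjusted p = 5.5e-05). These 3 genes were highest in the cortex and their groups did not overlap.

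Factors that act at the start of the cascade were higher in the endodermis in 3 cases. bHLH34 read 104, 109.8 and 102 in the cortex and 253, 256 and 194 in the endodermis (-1.07 ± 0.21 (SE), adjusted p = 0.0008), and bHLH104 read 597, 629 and 574 against 1005, 1288 and 1144 (-0.92 ± 0.22 (SE), adjusted p = 0.003). bHLH121, also named URI, read 143, 125 and 185 against 361, 265 and 327 (-1.03 ± 0.24 (SE), adjusted p = 0.0025). In all 3 every endodermis array was above every cortex array. bHLH115, a close relative of bHLH34 and bHLH104, was higher in the cortex at 604, 734 and 666 against 452, 372 and 380.4, but its adjusted p of 0.016 rose to 0.061, 0.054 and 0.051 without cortex replicate 2 and endodermis replicates 2 and 3 in that order. ILR3, the fourth of that subgroup, did not pass at 987, 1074 and 1061 against 1497, 1044 and 1556 (adjusted p = 0.15).

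PYE, a repressor of iron distribution genes, did not pass at 125, 101 and 91.9 in the cortex and 139, 169.6 and 120.3 in the endodermis (adjusted p = 0.21). BTSL2 (AT1G18910), the close relative of BTSL1, read 389, 361 and 275 against 254, 229 and 208 without overlap, and its difference of 0.54 missed the threshold (adjusted p = 0.079). IMA1 (AT1G47400), a mobile peptide that promotes iron uptake, read 74.4, 36.6 and 29.8 against 43.3, 39.4 and 71.8 (adjusted p = 0.72). In all, 5 of the 12 tested probe sets of the list were higher in the cortex and 3 in the endodermis, with a median of 0.19. ZIP6, a metal transporter of the ZIP family, was higher in the endodermis than in the cortex (145, 136 and 147 against 16.99, 49.2 and 25.9, -1.98 ± 0.34 (SE), adjusted p = 0.00022) and highest in the stele. bZIP19, a sensor and activator of the zinc deficiency response, was higher in the cortex at 1264, 1098 and 1653 against 507, 355 and 451 (1.58 ± 0.26 (SE), adjusted p = 0.00014).

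**Figure D5:**
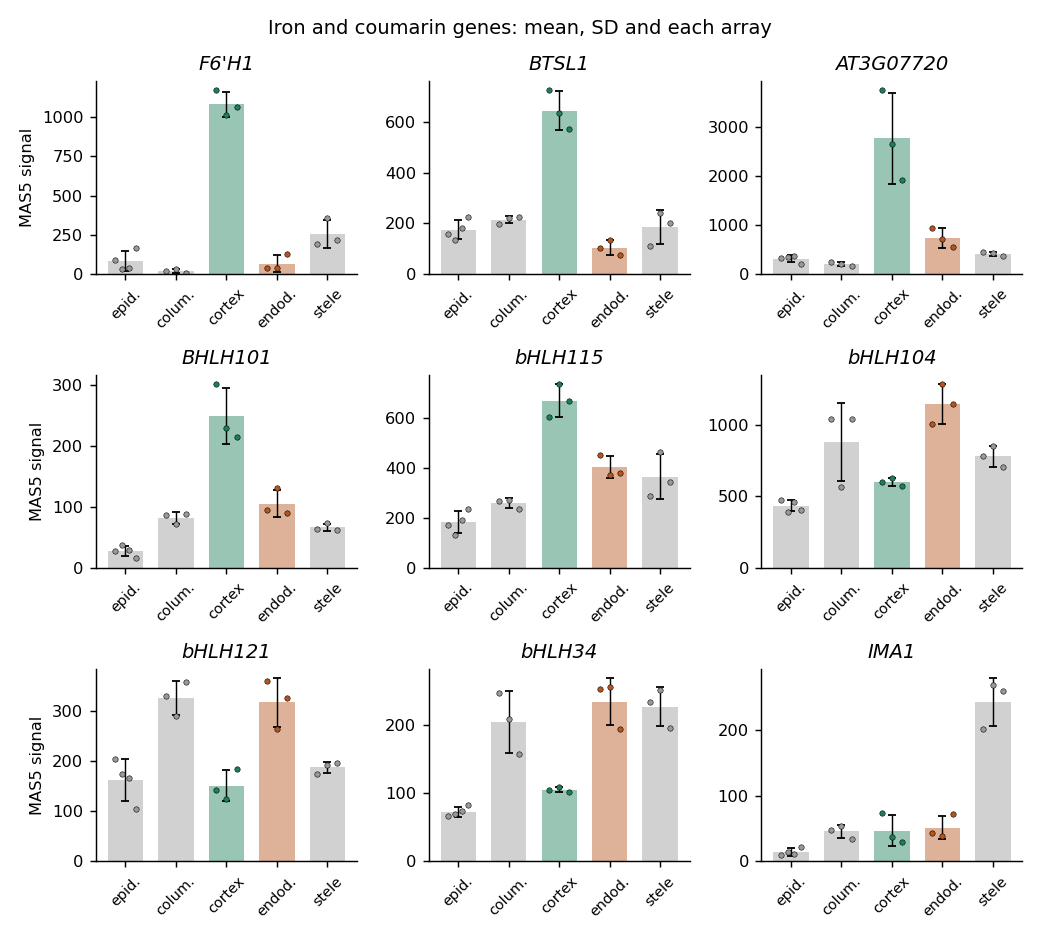
Signals of F6'H1 and 8 iron deficiency genes in the 5 populations, in arbitrary units on an axis that starts at 0, with bars at the mean, error bars of 1 SD and 1 point per array. The cortex points of F6'H1, BTSL1 and BHLH101 lie above the endodermis points, those of bHLH34, bHLH104 and bHLH121 lie below them, and those of IMA1 overlap.

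Transporters of the NPF family, which carry nitrate, peptides, glucosinolates and hormones, were called in both directions. Of 23 tested, 10 were higher in the cortex and 7 in the endodermis, with a median of -0.22. NPF6.4 (AT3G21670), a nitrate transporter, read 423, 99.8 and 346 in the cortex and 5.97, 3.49 and 7.18 in the endodermis, 16.4-fold (4.04 ± 0.39 (SE), adjusted p = 1.1e-06). NPF2.5 (AT3G45710), a chloride transporter of root cells, read 700.2, 1019.7 and 1008 against 47.4, 81.8 and 33.4 (3.88 ± 0.39 (SE), adjusted p = 1.3e-06). GTR2, an importer of glucosinolates, read 1227, 649.8 and 1016 against 141, 74.01 and 58.98 (3.30 ± 0.34 (SE), adjusted p = 1.7e-06). NPF5.16 (AT1G22550) read 1687, 2360.5 and 1947 against 380.4, 274 and 341. All 4 were highest in the cortex and without overlap.

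NPF2.4 (AT3G45700), the gene next to NPF2.5 and another chloride transporter, was called in the opposite direction, at 736, 683 and 462 in the cortex and 2134, 1749 and 2963 in the endodermis. Its adjusted p of 0.014 rose to 0.062 and 0.058 without cortex replicate 3 and endodermis replicate 3 in that order. NPF5.9 (AT3G01350; -2.29 ± 0.41 (SE), adjusted p = 0.00029), NPF1.3 (AT5G11570; -1.93 ± 0.33 (SE), adjusted p = 0.0002) and NPF2.3 (AT3G45680; -1.74 ± 0.39 (SE), adjusted p = 0.0017), the last a nitrate transporter of the stele, were higher in the endodermis. NPF3.1 (AT1G68570), which transports gibberellin and nitrite, read 29.96, 25.3 and 25.4 against 135, 81.7 and 90.3 (-1.57 ± 0.40 (SE), adjusted p = 0.0045) and was highest in the endodermis. Of the calls, 8 of 10 toward the cortex and 4 of 7 toward the endodermis were made whichever of the 6 arrays was left out. The exceptions beside NPF2.4 were NPF6.2 (AT2G26690), NPF5.12 (AT1G72140), NPF4.3 (AT1G59740) and GTR1. Adjusted p for NPF6.2 was 0.054 without cortex replicate 3, that of NPF5.12 was 0.079 and 0.085 without cortex replicate 2 and endodermis replicate 3 in that order and that of NPF4.3 was 0.078 without endodermis replicate 2. For GTR1 it was 0.051, 0.11, 0.13 and 0.057 without cortex replicates 2 and 3 and endodermis replicates 1 and 3 in that order and 0.084 after median centring.

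Genes of the ER body, a compartment that stores defensive beta-glucosidases, were higher in the cortex. PYK10, the main beta-glucosidase of root ER bodies, read 8738, 8584 and 9293 in the cortex and 1277, 1597 and 1123 in the endodermis, 6.68-fold (2.74 ± 0.18 (SE), adjusted p = 4.7e-08), and was the highest of the 5 populations in the cortex and the lowest in the endodermis. NAI1, the bHLH factor that drives ER body genes, read 131, 278 and 219.6 against 11.3, 85.5 and 30.9 (2.26 ± 0.39 (SE), adjusted p = 0.00023). NAI2, a structural protein of ER bodies, read 1384, 3522 and 3329 against 369, 415 and 279.7 (2.82 ± 0.31 (SE), adjusted p = 3.3e-06). JAL33 and JAL34, adjacent genes for jacalin-related lectins that bind PYK10 complexes, differed by 2.90 ± 0.30 (SE), adjusted p = 1.9e-06 and 2.90 ± 0.22 (SE), adjusted p = 1.7e-07. Of 18 listed genes the annotation named 5, and all 5 were tested. Of these, 4 were higher in the cortex, and the fifth, UGT74B1 of glucosinolate synthesis, did not pass (adjusted p = 0.066). The endodermis had the lowest mean of the 5 populations for PYK10, NAI1, NAI2, JAL33 and JAL34, but NAI1, NAI2, JAL33 and JAL34 were highest outside the ground tissue.

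Further genes with large differences toward the cortex came from wall modification, detoxification and hormone conjugation. TBL41, of the family that acetylates wall polysaccharides, read 3087, 3037 and 3214 in the cortex and 325, 265 and 195 in the endodermis (3.55 ± 0.35 (SE), adjusted p = 1.3e-06). PMEPCRF, a pectin methylesterase, read 3097, 2063 and 2758 against 297, 265 and 189.7 (3.35 ± 0.35 (SE), adjusted p = 2.3e-06). TINY (tny), an AP2/ERF transcription factor, read 1954, 2025 and 2343 against 226, 147 and 188 (3.44 ± 0.35 (SE), adjusted p = 1.5e-06). These 3 were highest in the cortex and lowest in the columella. Of 4 tested pectin methylesterase genes, 3 were higher in the cortex, PMEAMT (1.12 ± 0.25 (SE), adjusted p = 0.0017) and ATPMEPCRD beside PMEPCRF, and the adjusted p of ATPMEPCRD was 0.053, 0.11 and 0.11 without cortex replicates 1 and 3 and endodermis replicate 2 in that order. GH3.17, which conjugates auxin to glutamate, read 1051, 1075 and 1118 against 93.7, 111 and 166 (3.06 ± 0.26 (SE), adjusted p = 3e-07). MT1C, a metallothionein that binds metals, read 5130.3, 5769.8 and 4917 against 863, 655 and 543 (2.94 ± 0.22 (SE), adjusted p = 1.4e-07). Both had their highest mean in the columella, 6184 ± 1310.0 (SD, n = 3) and 5612 ± 695 (SD, n = 3).

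Cytochrome P450 genes gave 4 calls toward the cortex and 2 toward the endodermis among 13 tested. CYP718 read 654, 489.9 and 674 in the cortex and 81.2, 106 and 15.6 in the endodermis (3.23 ± 0.45 (SE), adjusted p = 3.4e-05). CYP71B6, which acts on indole compounds, read 834, 1112 and 853 against 66.00, 85.8 and 137 (3.19 ± 0.33 (SE), adjusted p = 1.9e-06). CYP71B34 read 638, 593 and 785 against 45.97, 79.3 and 75.6 (3.17 ± 0.29 (SE), adjusted p = 6.9e-07). CYP71B26, adjacent to CYP71B34, was 3.58-fold higher in the cortex (adjusted p = 0.0023). CYP78A9, of a family that promotes organ growth, was higher in the endodermis (-1.59 ± 0.38 (SE), adjusted p = 0.0028). The 4 cortex calls were made whichever of the 6 arrays was left out, and of the 2 endodermal ones that of CYP78A9 was.

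The 6 largest differences toward the cortex among genes named by locus tag alone included F6'H1 and NPF6.4. AT3G28550 read 180.3, 1767 and 567 in the cortex and 24.2, 5.67 and 5.00 in the endodermis, 28.6-fold (4.84 ± 0.69 (SE), adjusted p = 3.9e-05), the largest of them. Its cortex replicates had the order of the epidermal marker sum. The share of all calls toward the cortex with that order was not counted, and the part of epidermal RNA was not tested. AT1G72200 read 3264, 3520.0 and 3734 against 218, 152 and 129 (4.34 ± 0.23 (SE), adjusted p = 3.4e-09), with the smallest adjusted p of the genes named here. AT5G59540 (4.12 ± 0.61 (SE), adjusted p = 5.4e-05) and AT4G23670 (3.97 ± 0.46 (SE), adjusted p = 5.1e-06) completed the group, and all were highest in the cortex.

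Most tested nuclear genes of the photosynthetic machinery were higher in the cortex, in an organ whose plastids are mostly not photosynthetic. Of 17 tested nuclear genes of the photosynthetic machinery, 11 were higher in the cortex and 1 in the endodermis, with a median of 1.77, and the cortex was the highest of the 5 populations for all 11. ATPC1, the gamma subunit of the chloroplast ATP synthase, read 1256, 1201 and 1141 in the cortex and 116, 178 and 105 in the endodermis (3.11 ± 0.39 (SE), adjusted p = 1.2e-05). RCA, Rubisco activase, read 565, 474 and 318 against 97.2, 67.4 and 32.3 (2.67 ± 0.34 (SE), adjusted p = 1.2e-05). LHCB4.1, an antenna protein of photosystem II, read 216, 229 and 201 against 8.98, 38.9 and 31.5 (2.73 ± 0.42 (SE), adjusted p = 8.4e-05). PSAN of photosystem I (2.42 ± 0.29 (SE), adjusted p = 8.1e-06), NdhS of the chloroplast NDH complex (2.78 ± 0.34 (SE), adjusted p = 9.3e-06) and PORB of chlorophyll synthesis (1.77 ± 0.45 (SE), adjusted p = 0.0046) followed. Of the 11 calls, 10 were made whichever of the 6 arrays was left out. HEMA3, of tetrapyrrole synthesis, was the gene higher in the endodermis (-1.01), with an adjusted p of 0.008 that rose to 0.065 under quantile normalization.

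Of 69 transcripts encoded in the plastid genome, 28 were higher in the endodermis and 2 in the cortex, with a median of -0.76, and the endodermis was the highest of the 5 populations for all 28. The count fell to 18 without cortex replicate 2 and to 16 without endodermis replicate 2. Among subunits of the plastid ATP synthase, atpH read 1268, 375 and 677 in the cortex and 4143, 4864 and 6455 in the endodermis (-2.87 ± 0.34 (SE), adjusted p = 7.4e-06). The neighbouring atpI read 64.1, 10.7 and 23.3 against 131, 324 and 228 (-2.58 ± 0.40 (SE), adjusted p = 7.5e-05). In all, 5 of the 6 tested subunits were called. The other photosynthesis complexes gave shares nearer the background of 26.1%, with 5 of 15 for photosystem II, 2 of 5 for photosystem I, 3 of 10 for the NDH complex, and 2 of 6 for cytochrome b6f beside 1 toward the cortex. The photosystem I count fell to 0 without endodermis replicate 2, and the NDH count to 0 without cortex replicate 2, cortex replicate 3 or endodermis replicate 2 and to 1 without endodermis replicate 3, while it rose to 6 without cortex replicate 1. Outside the photosynthesis complexes, 8 of 15 plastid ribosomal protein genes and 2 of 4 plastid RNA polymerase genes were called toward the endodermis. Toward the cortex there was 1 ribosomal call. The ribosomal count of 8 fell to 4 without cortex replicate 2 or endodermis replicate 2 and to 5 after median centring. The polymerase count ranged from 1 to 4 over the left-out arrays. All these groups were formed after the differences were seen. The ribosomal genes rpl36 (-2.69 ± 0.27 (SE), adjusted p = 1.5e-06) and rps14 (-2.59 ± 0.46 (SE), adjusted p = 0.00026), ycf3 for photosystem I assembly (-2.33 ± 0.32 (SE), adjusted p = 2.4e-05) and petN and petD of the cytochrome b6f complex (-2.44 and -1.88) were called in the same direction without overlap between groups. Plastid transcripts mostly lack a stable poly(A) tail, and how far the amplification captured them is not given in the sources used here. The 3′ to 5′ ratio given above moved with the groups, and its part in these calls was not tested.

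The 2 plastid transcripts called higher in the cortex were petB, with 5588, 2344 and 4684 against 1633, 2434 and 1764, and rpl33, with 1382, 946 and 1288 against 253, 526 and 632. Leaving out arrays took the adjusted p of petB to 0.06 and 0.057 without cortex replicates 1 and 3 in that order. That of rpl33 was 0.058, 0.067 and 0.11 without cortex replicates 1 and 3 and endodermis replicate 1 in that order. Of 16 mitochondrion-encoded probe sets, 5 were higher in the endodermis and 1 in the cortex. The count of 5 was 2 without cortex replicate 2 or endodermis replicate 2, 3 without cortex replicate 3 or endodermis replicate 3, and 8 without cortex replicate 1. It was 11 with array weights and 3 under quantile normalization, median centring or a pseudocount of 1.

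Families of wall enzymes contributed calls on both sides. Among the xyloglucan endotransglucosylases, which cut and rejoin the hemicellulose of growing walls, 3 of 7 were higher in each layer. XTH21 read 164, 112 and 84.9 in the cortex and 1099.9, 665 and 1896 in the endodermis (-3.16 ± 0.59 (SE), adjusted p = 0.00041). XTH16 read 76.8, 175 and 152 against 1050.1, 733 and 754 (-2.62 ± 0.58 (SE), adjusted p = 0.0018). By contrast, XTH19 was higher in the cortex at 500.2, 1926 and 1487 against 302, 162 and 181 (2.39 ± 0.48 (SE), adjusted p = 0.00076). XTH18, adjacent to XTH19, and XTH33 were also called higher in the cortex. XTH18 had an adjusted p of 0.066, 0.09, 0.054 and 0.054 without cortex replicates 2 and 3 and endodermis replicates 2 and 3 in that order, and that of XTH33 was 0.06 and 0.1 without cortex replicate 2 and endodermis replicate 3 in that order and 0.095 with a pseudocount of 1. The cortex count of 3 fell to 1 without cortex replicate 2 or endodermis replicate 3. XTH18 and XTH19 were higher in cortex replicates 2 and 3 than in replicate 1, like the epidermal markers. How common that order is among all calls toward the cortex was not counted.

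Of 14 tested expansins, which loosen walls, 5 were higher in the cortex and 4 in the endodermis. EXPA9 (2.10 ± 0.35 (SE), adjusted p = 0.00018) and EXLA2 (2.57 ± 0.59 (SE), adjusted p = 0.0022) were the 2 cortex calls made whichever of the 6 arrays was left out. EXPA7, EXPA8 and EXPA18 were lost without cortex replicate 2, which took the cortex count to 2, and the count was 3 without endodermis replicate 2 or 3. For EXPA7 the adjusted p was 0.081 and 0.092 without cortex replicate 2 and endodermis replicate 3 in that order, and that of EXPA18 was 0.092 and 0.077 without cortex replicate 2 and endodermis replicate 2 in that order. The difference of EXPA7 fell from 2.33 to 1.34 without endodermis replicate 3. EXLA3 read 16.4, 50.1 and 35.9 in the cortex and 149, 147 and 168 in the endodermis (-1.97 ± 0.33 (SE), adjusted p = 0.00018), and EXLB1 (-1.74 ± 0.43 (SE), adjusted p = 0.0035), EXPA20 (-1.45 ± 0.30 (SE), adjusted p = 0.0011) and EXPA15 (-1.37 ± 0.25 (SE), adjusted p = 0.00035) were also higher in the endodermis. These 4 calls were made whichever of the 6 arrays was left out.

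The trichome birefringence-like genes divided 4 to 6 among 19 tested. TBL30, required for xylan acetylation, read 170.3, 232 and 249 in the cortex and 2390.1, 2921 and 2473 in the endodermis, 11.6-fold (-3.53 ± 0.32 (SE), adjusted p = 5.8e-07). The gene next to it, TBL28, was higher in the cortex at 203, 168 and 159 against 86.01, 111 and 91.3 (0.81 ± 0.24 (SE), adjusted p = 0.011). TBL19 was higher in the endodermis at 490.5, 603 and 474 against 104, 101 and 109 (-2.20 ± 0.35 (SE), adjusted p = 0.00012). TBL39 was higher in the cortex at 2594, 3357 and 3543 against 1329, 1062 and 1148 (1.41 ± 0.19 (SE), adjusted p = 2e-05). The groups did not overlap in any of these 4 genes. Of the calls, 3 of 4 toward the cortex and 4 of 6 toward the endodermis were made whichever of the 6 arrays was left out.

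Serine carboxypeptidase-like genes, a family of vacuolar proteases and acyltransferases, lay mainly on the endodermal side. Of 19 tested, 8 were higher in the endodermis and 2 in the cortex, and the 8 became 5 without cortex replicate 3. scpl46 read 6.59, 3.16 and 1.72 in the cortex and 138, 177 and 101 in the endodermis (-3.39 ± 0.29 (SE), adjusted p = 3e-07). SCPL45 read 203, 219 and 227 against 1555, 1704 and 1479 (-2.81 ± 0.19 (SE), adjusted p = 4.9e-08), and scpl48 read 634, 697 and 567 against 1775, 2692 and 2277 (-1.80 ± 0.26 (SE), adjusted p = 4.9e-05). None of these 3 was highest in the endodermis: scpl46 and scpl48 peaked in the columella and SCPL45 in the stele. SCPL27 was higher in the cortex (1.54 ± 0.30 (SE), adjusted p = 0.00064), 1 of the 2 cortex calls and the 1 made whichever of the 6 arrays was left out. Of 3 tested subtilases, a family of secreted proteases, SBT4.12 (-2.29 ± 0.42 (SE), adjusted p = 0.00039) and SBT1.3 (-1.40 ± 0.31 (SE), adjusted p = 0.0018) were higher in the endodermis.

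Hormone, transcription factor and stress genes gave calls in both directions. SLY1, the F-box protein that removes DELLA repressors of gibberellin signalling, was higher in the cortex at 187, 177 and 279.6 against 41.5, 55.9 and 59.5 (1.83 ± 0.23 (SE), adjusted p = 1.2e-05), with its highest mean in the stele. Of 7 Aux/IAA repressors of auxin signalling, 4 were higher in the endodermis and 0 in the cortex, falling to 2 after median centring. IAA30 (-1.46 ± 0.34 (SE), adjusted p = 0.0023) and IAA33 (-1.53 ± 0.39 (SE), adjusted p = 0.0043) were the calls made whichever of the 6 arrays was left out. Both had their highest mean in the columella, 339 for IAA30 and 1105 for IAA33, and none of the 4 was highest in the endodermis. bZIP58 was higher in the endodermis at 96.1, 277 and 249 against 33.8, 19.4 and 16.3 (-2.61 ± 0.39 (SE), adjusted p = 5.8e-05), and bZIP44 less so (-0.93 ± 0.24 (SE), adjusted p = 0.005). WRKY22, a factor of immune signalling, was higher in the endodermis (-0.80 ± 0.22 (SE), adjusted p = 0.0071). Of 4 tested genes of the stress and protoplasting list, 2 were higher in the endodermis and 1 in the cortex. HSP17.6C (AT1G53540), a small heat shock protein, read 48.9, 35.1 and 28.9 in the cortex and 142, 123 and 212 in the endodermis (-1.81 ± 0.36 (SE), adjusted p = 0.00071). HSP22.0, also a small heat shock protein, was called in the same direction at 32.7, 3.74 and 2.55 against 38.2, 35.3 and 52.9, without overlap, and the endodermis count fell to 1 without cortex replicate 2, cortex replicate 3 or endodermis replicate 3. TI1 (AT1G17860), a protease inhibitor, was higher in the cortex at 1479, 3388 and 2664 against 1233, 1151 and 963 (1.09 ± 0.33 (SE), adjusted p = 0.013), and that call was lost without any 1 of the same 3 arrays. The zinc finger factor STZ did not pass at 1769, 2599 and 2088 against 3589, 2644 and 3763 (adjusted p = 0.083).

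Glutathione transferases, which conjugate reactive and foreign compounds, gave 4 calls toward the cortex and 2 toward the endodermis among 12 tested. GSTL3 read 539, 393 and 475 in the cortex and 138, 93.2 and 103 in the endodermis (1.99 ± 0.29 (SE), adjusted p = 5.1e-05). GSTU16 read 154, 148 and 174 against 34.6, 52.97 and 17.3 (1.98 ± 0.33 (SE), adjusted p = 0.00015). GSTU22 was also higher in the cortex (1.37 ± 0.35 (SE), adjusted p = 0.0049). GSTU28 had an adjusted p of 0.085, 0.058 and 0.053 without cortex replicates 2 and 3 and endodermis replicate 2 in that order. Neither endodermal call survived each single left-out array: the adjusted p of GSTU23 was 0.18 and 0.091 without cortex replicate 3 and endodermis replicate 3 in that order, 0.11 under quantile normalization and 0.1 in a fit of only the 6 arrays, with a difference of -0.52 in place of -1.08 without cortex replicate 3, and that of GSTU25 was 0.055 without endodermis replicate 1.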

How the data were processed

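Intensity values are the MAS5 signals that the authors deposited for 16 ATH1 arrays, with MAS5 named per the submitters' processing notes and its settings not given in the sources used here. Of 22746 probe sets that are not controls, 16221 reached a signal of 38.05, the 40th percentile, on 3 or more of the 16 arrays and were fitted on the log2(signal + 10.21) scale with limma 3.58.1 in R 4.3.3. The fit held a mean per population, an intensity trend and 11 residual degrees of freedom, and the contrast cortex minus endodermis was 2-sided with Benjamini-Hochberg adjustment. Tables were made with Python 3.11.15. The array number limits the precision. In simulated data with 200 changed genes, the cortex minus endodermis fit on 16221 probe sets recovered 14% of 2-fold and 83.5% of 4-fold changes. The real comparison called 7194 probe sets, for which the adjustment is less strict. These shares therefore do not give the recovery in the real data.

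Genes were named through the platform annotation and RefSeq TAIR10.1, with 13513 probe sets naming 1 gene, 503 several and 8794 none. SGN1, CIF2, BLJ, SCL23, BTSL1, BTSL2, IMA1, F6'H2, COSY, the cortex markers and the DIR, PRX and NPF numbers printed with a locus tag are common names given to loci that the annotation mostly lists without a symbol. Genes named are the 15 with a symbol and the 6 with a locus tag alone that differed most in each direction among calls without overlap, and members of 25 gene lists and of families. The members and lists were chosen with earlier results of these data known, and the peroxidase, dirigent, NPF, jacalin and plastid subgroup lists after their differences were seen, so no list is independent support. Where several probe sets name a gene, the brightest stands for it.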

Additional observations from a re-analysis of the deposited data

How the results depend on the processing

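The 18 alternatives varied scaling, pseudocount, filter, intensity trend, array weights, the fit of only the 6 arrays, the replicate block and each left-out array. None of them called a probe set in the direction opposite to its call above. Over all probe sets, changes of sign among calls that were lost were not counted. The median difference over all tested probe sets was -0.21 as reported, -0.03 under quantile normalization and -0.0533 after median centring. Leaving out 1 of the 6 arrays gave 2366 to 2800 probe sets higher in the cortex, 2934 to 4483 higher in the endodermis and a median of -0.28 to -0.16. Leaving out epidermis replicate 4, the array with the lowest array weight (0.281), gave 3150 and 4653. The replicate number as a block gave 3080 and 4539. The numbers did not pair the samples, since the deviations of same-numbered cortex and endodermis arrays correlated at -0.16, -0.11 and -0.01. Of 236 called probe sets among the 410 named or listed, 175 were called under every alternative, 61 were not, and 58 of these were lost on leaving out 1 array. Averaging the probe sets of a gene gave 2.63 for BTSL1, -0.60 for nad1 and -0.73 for nad5. Signals near the pseudocount limit the size of differences: under a pseudocount at the 40th percentile BBM fell from -2.58 to -1.57 and PHV from -1.82 to -1.13.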

Other observations

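In the RefSeq TAIR10.1 gene order, 24 pairs of adjacent genes had both members called among the genes described or listed, and 19 of these pairs were called in the same direction. Of 12 nuclear pairs, 8 shared a direction: UGT71C1 and UGT71C2, CYP71B34 and CYP71B26, JAL33 and JAL34, XTH18 and XTH19, and NPF5.16 (AT1G22550) with each of its neighbours (AT1G22540 and AT1G22570) toward the cortex, and PRX37 and PRX38 and the dirigent genes AT4G11190 and AT4G11210 toward the endodermis. Of 12 plastid pairs, 11 were called toward the endodermis together, among them atpH with atpI and with atpF, atpE and atpB, and rps3 and rpl22. Plastid calls were 28 toward the endodermis and 2 toward the cortex, so most pairs of called plastid genes share a direction, adjacent or not. Of all calls, 41.2% were toward the cortex, so many nuclear pairs would share a direction too. The 5 pairs called in opposite directions were NPF2.4 and NPF2.5, TBL28 and TBL30, TBL19 and TBL21, GSTU22 and GSTU23, and the plastid genes petB and petD. The calls of petB and GSTU23 were lost without single arrays, as given above. TBL21 read 42.04, 919 and 543 in the cortex and 52.9, 67.2 and 77.9 in the endodermis, with overlapping groups, and its adjusted p of 0.04 rose to 0.23 without cortex replicate 2, to 0.17 without cortex replicate 3, to 0.095, 0.081 and 0.069 without endodermis replicates 1, 2 and 3, to 0.053 with a pseudocount of 1 and to 0.068 in a fit of only the 6 arrays. Its difference of 1.99 was 3.25 without cortex replicate 1 and 1.17 without cortex replicate 2. These pairs were noticed after the calls were made, and no test of adjacency was run.

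The 7 probe sets of the mitochondrial gene nad1 disagreed, with differences from -1.59 to 1.87, so no single direction is given for it. Starch genes gave 1 call toward the cortex (APL3) and 1 toward the endodermis (PWD) among 5 tested, and both were lost under several alternatives. Of 4 tested flavonoid genes, UGT78D2 was higher in the cortex and the others did not pass. Of 7 cellulose synthases and relatives, CSLA03 was called toward the cortex (1.81), and its adjusted p of 0.027 rose to 0.14 without cortex replicate 2 or 3, to 0.057 without endodermis replicate 1, to 0.07 without endodermis replicate 2 and to 0.055 without endodermis replicate 3.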
